A study of Saccharomyces cerevisiae with 159 samples.

Results

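The 9 genes described here make and break down glycogen in budding yeast, Saccharomyces cerevisiae, and were picked by name from a table of 7130 rows: GSY1 (YFR015C), GSY2 (YLR258W), GLC3 (YEL011W), GPH1 (YPR160W), GDB1 (YPR184W), GLG1 (YKR058W), GLG2 (YJL137C), GAC1 (YOR178C) and UGP1 (YKL035W). All 9 were found, and all 9 passed the filter on low values in each of the 8 experiments of the series. The RNA sequencing libraries of the series fall in 97 groups from 12 strains. It asked how gene expression changes when cells are held in a cell cycle arrest for hours and keep growing in size, and set that beside growth into stationary phase, rapamycin and activation of protein kinase A.

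Glycogen is a branched glucose polymer that yeast stores when growth slows and uses up when growth resumes. Ugp1 makes the activated sugar UDP-glucose, the glycogenins Glg1 and Glg2 lay down a short primer, the synthases Gsy1 and Gsy2 lengthen it, and Glc3 adds branches. Gac1 is a regulatory subunit that brings protein phosphatase 1 to glycogen synthase. Gph1, the phosphorylase, releases glucose 1-phosphate from chain ends, and Gdb1 removes the branches that phosphorylase cannot pass. Protein kinase A (PKA) is held inactive by its regulatory subunit Bcy1, and active PKA is known to lower the transcription of stress and storage carbohydrate genes, in part by acting on the factors Msn2 and Msn4, which bind the stress response element (STRE).

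Each group was defined by strain, time and treatment as labelled. The WT strain A2587 is MATa and carries can1-100, his3-11,15, trp1-1, ura3, leu2-3 and ade2-1. In the cdc28-13 experiment it was compared at 37 °C with A39000, the same genotype with cdc28-13::URA3, which arrests in G1, at 2, 4, 6, 8 and 9 h. Each of these groups had 3 libraries except cdc28-13 at 4 and 6 h, with 1 library each. In the cdc20 and cdc15 experiments WT was compared at 37 °C with A937 (MATalpha cdc20-1, with ura3, trp1, leu2, his3, ade2 and can1 alleles), which arrests in metaphase, and with A2596 (MATa cdc15-2, with leu2-3, ura3, trp1-1 and ade1), which arrests in late anaphase, with 1 library per group. WT cultures at 37 °C were diluted repeatedly and kept cycling.

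In the alpha factor experiment A2589 (MATa bar1::HisG, with leu2-3, ura3, trp1-1, his3, ade2 and can1 alleles), which cannot degrade the pheromone, received alpha factor or the solvent DMSO at 30 °C for 0 to 9 h, with 1 library per group. Alpha factor was started at 5 µg/mL, and the library labelled alpha factor at 0 h had none. In the growth experiment A2587 and A33728, labelled MATa/alpha, grew at 30 °C for 2, 4, 6, 8, 10 and 24 h, with 2 libraries per group except haploid 4 h, with 1. In the rapamycin experiment both strains received the TORC1 inhibitor at 5 nM per the labels for 0 to 5 h at 30 °C, with 2 libraries per group. In the Bcy1 experiment WT, cdc28-13, cdc20-1 and cdc15-2 parents were compared at 37 °C with strains of the same cdc allele (A40439, A40444, A40499 and A40501) in which BCY1 is expressed from the RFA1 promoter with a 9Myc-AID* tag and osTIR from the TEF1 promoter, so that auxin triggers degradation of the tagged protein. All strains of that experiment, parents included, received 500 µM auxin after the 2 h sample, and the 4 and 6 h samples had 2 and 4 h of auxin. Every group had 2 libraries except WT at 2 h, with 1. In the prototroph experiment 2 cdc28-13 strains were synchronised with alpha factor and held at 37 °C for 2, 4, 6 and 8 h, with 1 library per group. The auxotroph A17896 carries leu2-3, ura3, trp1-1 and his3-11,15, while A41270 has these markers restored and also carries a 4xSTRE-GFP reporter at leu2.

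Because Msn2 and Msn4 are known to act through STREs, the 500 bases before each start codon were searched for the STRE core, AGGGG, on both strands (CCCCT on the gene's own strand marks a core on the other). The core was present in 7 of the 9 windows, with 16 sites in all. It occurred at least once in 34.1% of 6006 such windows of nuclear genes and at least 2 times in 8.18%, against 6 of the 9 glycogen windows. UGP1 had 4 sites, GLC3 had 3, GSY1, GSY2, GPH1 and GLG2 had 2 each, GDB1 had 1, and no core was found in the windows of GLG1 and GAC1. For 6 of these genes the site nearest to the start codon is shown as a description, and site counts were not tested against the levels that follow. Each line reads 5′ to 3′ on the strand of the gene, from the RefSeq reference of build R64 (sacCer3), with the core in capitals.
UGP1 (chrXI:369621-369645, plus strand, 255 bases before the start codon): ccttcccccgCCCCTtctcgaacag
GLG2 (chrX:156220-156244, minus strand, 102 bases before the start codon): tataaagatgAGGGGagtagatcaa
GSY1 (chrVI:176709-176733, minus strand, 327 bases before the start codon): acaagtaataCCCCTtggaggattt
GSY2 (chrXII:660510-660534, plus strand, 191 bases before the start codon): acgcaattcaCCCCTttctttctta
GLC3 (chrV:132897-132921, plus strand, 208 bases before the start codon): gctttgtccaAGGGGctgttgcaac
GDB1 (chrXVI:901842-901866, plus strand, 187 bases before the start codon): acagcagcaaCCCCTtgaaatggcc
Of the related post-diauxic shift element only the form TTAGGGAT was searched, on either strand. That form was found in none of the 9 windows and in 0.882% of the 6006. Other forms of the element were not searched.

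Levels are given as log2(rescaled TPM + 1), where TPM is a transcript abundance per length, rescaled to a total of 1000000 over 6678 nuclear open reading frames. A difference of 1 on this scale is close to a doubling. The libraries hold RNA of whole cultures, so more cells expressing a gene and more RNA per cell cannot be told apart, and depth is unknown because TPM keeps none. In the cdc28-13, growth and rapamycin experiments 63.8 to 87.5% of open reading frame TPM came from 7 reading frames inside the ribosomal DNA, which were left out. In these experiments 893 to 1691 of the 6678 genes were listed at 0 in a library, against 186 to 624 in the other 5, so low values there are coarse. The labels do not say that replicate libraries came from separate cultures, and for another measurement the study describes its stationary phase and rapamycin experiments as done 1 time. The p-values then measure the spread between these libraries, which may be technical.

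Mating type genes went against several labels. In the Bcy1 experiment the libraries labelled WT, WT AID-BCY1 and cdc15-2 AID-BCY1, all MATa by label, summed to 19.4 to 65.0 rescaled TPM over 5 a-cell genes and 866 to 4142 over 4 alpha-cell genes. Those of cdc28-13 and cdc15-2, and of AID-BCY1 strains with cdc28-13 or cdc20-1, summed to 790 to 2490 and to at most 273, and the cdc20-1 parents, MATalpha by label, to 25.8 to 45.2 and 3508 to 5173. Only the WT pair and the cdc28-13 pair of this experiment therefore share mating type markers. The libraries labelled diploid summed to 190 to 2393 over a-cell genes and 269 to 1042 over 6 haploid-specific genes, within or near the ranges of 87.5 to 2995 and 312 to 972 in haploid libraries, where an a/alpha diploid would repress both sets. They are called diploid-labelled here. Pheromone response genes summed to as much as 5868 in alpha factor and 23.6 to 47.3 in DMSO, as the labels say.

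All 9 glycogen genes were higher in the prolonged G1 arrest than in cycling WT, UGP1 only after the rescaling. At 2 h at 37 °C none of the 9 passed the limma test between cdc28-13 and WT (3 did at an unadjusted p under 0.05), where 0.527% of 6263 genes were higher. At 8 and at 9 h all 9 were higher in cdc28-13, against 17.5% and 17.1% of all genes, with a median difference of 4.53 at 8 h and 4.20 at 9 h, where the median over all genes was -0.20 and -0.12. GAC1 was 35.5-fold higher at 9 h, GLC3 25.2-fold and GPH1 21.6-fold, while UGP1 was 1.88-fold higher. Calls are from limma with Benjamini-Hochberg adjustment over all genes tested and an adjusted p under 0.05.

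GPH1, the phosphorylase, stood at 7.10, 7.02 and 6.73 in the 3 WT libraries at 9 h and at 11.38, 11.28 and 11.49 in cdc28-13. Its groups did not overlap, the gap was many times the spread within a group, and the limma difference was 4.43 ± 0.17 (SE, adjusted p = 3.3e-13). At 2 h GPH1 was 6.92, 6.46 and 6.98 in WT and 7.06, 7.59 and 7.74 in cdc28-13, a difference of 0.67 that did not pass (adjusted p = 0.061). GDB1, the debranching enzyme, moved from 5.64, 5.65 and 4.92 in WT to 9.09, 8.97 and 9.12 in cdc28-13 at 9 h, a difference of 3.66 ± 0.29 (SE, limma adjusted p = 4.2e-09). Both enzymes of breakdown were thus higher in every arrested library than in any cycling one at that time.

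The synthesis enzymes rose as well. GSY2, the main glycogen synthase, was 5.36, 6.04 and 5.81 in WT and 9.45, 9.42 and 9.61 in cdc28-13 at 9 h, a difference of 3.76 ± 0.21 (SE, limma adjusted p = 3.4e-11). GLC3, the branching enzyme, was 4.3, 4.04 and 5.05 against 9.26, 8.90 and 9.20, a difference of 4.66 ± 0.37 (adjusted p = 5.0e-09). Neither gene's groups overlapped, and at 2 h the same groups had overlapped, with GSY2 at 6.03, 6.08 and 5.75 against 5.87, 5.72 and 6.03. GSY1, the second synthase, was 3.37, 4.74 and 3.80 in WT and 8.16, 7.97 and 8.37 in cdc28-13 at 9 h, with a difference of 4.20 ± 0.59 (adjusted p = 1.2e-05). The primers GLG1 and GLG2 differed by 4.46 ± 0.46 and 3.40 ± 0.60 (limma adjusted p = 2.0e-07 and 0.00013), with arrested libraries at 6.94 or above and WT libraries at 4.66 or below.

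GAC1, the phosphatase subunit, had the largest difference of the 9 at 9 h. It stood at 4.12, 4.95 and 4.75 in WT and 9.82, 9.57 and 9.87 in cdc28-13, a difference of 5.15 ± 0.34 (SE, limma adjusted p = 4.5e-10). UGP1, whose product also feeds cell wall and trehalose synthesis, had the smallest, with 7.57, 7.21 and 7.93 in WT and 8.64, 8.33 and 8.46 in cdc28-13, a difference of 0.91 ± 0.18 (adjusted p = 0.00053). Its direction rests on the rescaling: in the values as deposited, whose total is mostly ribosomal DNA, the difference was -0.12 at 9 h and -0.20 at 8 h. The other 8 members stayed higher at 9 h in the deposited values, by 1.3 to 3.09.

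At 4 and 6 h cdc28-13 had a single library each. It had GPH1 at 9.76 and GLC3 at 7.70 at 4 h, and the library at 6 h had GPH1 at 10.72 and GLC3 at 7.86. With the lone library taken to vary like the other groups, 8 of 9 members were higher at 4 h (6.05% of all genes; GLG2 differed by 0.01) and 6 of 9 at 6 h (6.39%). Between 8 and 9 h of arrest none of the 9 passed limma's test, and 0 did at an unadjusted p under 0.05 (differences of -0.30 to 0.30; 116 of 6263 genes passed). In cycling WT none passed limma's test between 2 and 9 h, and 0 did at an unadjusted p under 0.05, where 0.0479% of genes rose, with member differences of -0.97 to 0.22.

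**Figure D1:**
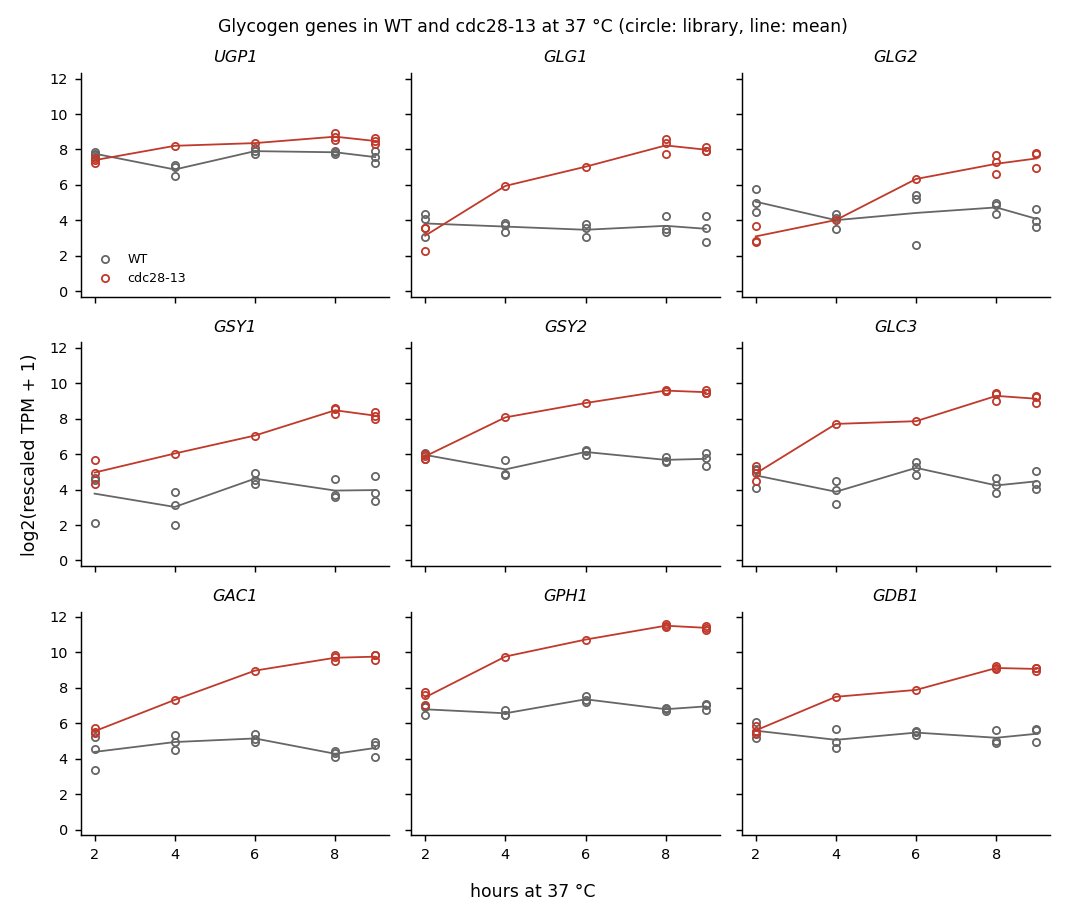
Level of each glycogen gene, in log2(rescaled TPM + 1), against hours at 37 °C in WT and cdc28-13, with a circle per library and lines through the means. The cdc28-13 libraries leave the WT range from 4 h on, except GLG2 at 4 h, with GPH1 highest at 11.38, 11.28 and 11.49 at 9 h and UGP1 closest to WT; UGP1 alone turns lower in the deposited values.

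The metaphase and anaphase arrests were followed in other libraries, whose differences were not tested against those of the G1 arrest. With 1 library per group there is no replicate check and no test, and a difference of at least 1 on the log2 scale is counted. At 9 h 7 of 9 members were at least 1 higher in cdc20-1 than in WT (30.6% of 6438 genes; median 1.58 for the members and 0.41 for all genes), but 7 of 9 already were at 2 h (16.4%). GPH1 was 7.22, 7.88, 7.58 and 7.55 in cdc20-1 at 2, 4, 6 and 9 h and 5.60, 5.98, 6.32 and 6.07 in WT. It was higher at each time, with gaps of the same order at 2 and 9 h. These cdc20-1 libraries carry alpha-cell markers (1333 to 2058 rescaled TPM), as their label says, and WT carries a-cell markers, so strain and arrest cannot be told apart at any of these times.

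In cdc15-2 the difference built up with time. At 2 h 1 of 9 members, GAC1, was at least 1 higher than in WT (2.18% of 6365 genes), and at 9 h 8 of 9 were (31.8%; median 2.16 for the members and 0.49 for all genes). GPH1 was 5.70, 7.45, 8.21, 8.47 and 8.38 in cdc15-2 at 2, 4, 6, 8 and 9 h and 5.72, 5.99, 6.43, 6.29 and 6.29 in WT. GDB1 was 4.58, 5.75, 6.56, 7.07 and 7.0 against 4.11, 4.25, 4.37, 4.40 and 4.19. Both genes started near the WT level and left it by 4 h. GSY1 was the member just under the threshold at 9 h, at 5.71 against 4.73. The ribosomal DNA frames, left out of the rescaling, also rose with time in these arrests. In cdc15-2 they made up 0.309% of open reading frame TPM at 2 h and 21.0% at 9 h, against 0.568% and 0.449% in WT. In cdc20-1 the shares were 0.553% and 5.37%, against 0.455% and 0.249% in WT. Whether this bears on the differences was not tested.

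The Bcy1 experiment held the replicated comparison of these arrests, in its parent strains at 4 and 6 h with auxin. Higher than WT were 6 of 9 members in cdc28-13 (30.3% of all 6074 genes), 6 of 9 in cdc20-1 (34.7%) and 5 of 9 in cdc15-2 (29.2%), with member medians of 0.95, 0.85 and 0.69. GDB1 was higher in each, by 1.53 ± 0.24, 1.48 ± 0.24 and 1.79 ± 0.24 (SE, limma adjusted p = 6.7e-06, 7.2e-06 and 1.1e-06). GPH1 was higher by 1.62, 1.2 and 0.96, and GSY1 differed by 0.45, -0.24 and 0.57 without passing. Without the first cdc28-13 library at 4 h the cdc28-13 count was 3, and without either the first WT or cdc15-2 library at 6 h or the second WT or cdc15-2 library at 4 h the cdc15-2 count was 3. The cdc28-13 and cdc15-2 parents also differ from the libraries labelled WT in mating type markers, whose part in these differences was not tested. The WT parent itself was not steady. GPH1 in it was 6.39 in the single library at 2 h, 8.08 and 7.58 at 4 h and 6.67 and 7.23 at 6 h. GLC3 was 5.21, then 6.82 and 6.93 at 4 h, while GLG2 was 5.24, then 5.06 and 4.88. These changes within WT were not tested.

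Pheromone arrest was measured in a strain with no cdc mutation, and the number of members higher in it went up and down with time. At 0 h no member was at least 1 higher in alpha factor than in DMSO (0.585% of 5978 genes), at 2 h 3 of 9 were (12.8%), at 4 h 2 of 9 (15.0%), at 6 h 7 of 9 (19.1%), at 8 h 4 of 9 (19.2%), and at 9 h 6 of 9 (24.4%; median 1.47 for the members and 0.34 for all genes). GPH1 was 2.96, 5.65, 3.74, 5.98, 5.38 and 6.43 in alpha factor at 0, 2, 4, 6, 8 and 9 h and 3.65, 3.00, 2.78, 2.70, 3.23 and 4.00 in DMSO. It was higher from 2 h on, with a dip at 4 h that 8 of 9 members showed.

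GAC1 had the widest gap at 9 h, at 4.71 in alpha factor against 1.03 in DMSO, and that gap held a fall in DMSO, where GAC1 went from 3.44 at 0 h to 1.03 at 8 and 9 h. GLC3 also fell in DMSO, from 4.86 at 0 h to 3.25 at 9 h, and was 5.65 in alpha factor at 9 h. Of the members under 1, UGP1 was 8.31 against 7.36 and GLG2 4.97 against 4.09.

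The prototroph experiment asked whether nutrient markers matter to the response in cdc28-13. In the auxotroph 8 of 9 members were at least 1 higher at 8 h than at 2 h (23.6% of 6205 genes; median 2.03), and in the prototroph 2 of 9 were (18.8%; median 0.91). At 2 h 1 of 9 members was at least 1 lower in the prototroph than in the auxotroph (2.29%), and at 8 h 8 of 9 were (11.7%; median -1.63 for the members and -0.17 for all genes). GPH1 was 6.49, 7.99, 8.94 and 8.93 in the auxotroph at 2, 4, 6 and 8 h and 5.65, 7.18, 7.66 and 7.29 in the prototroph. It climbed in both strains to 6 h, and the gap widened from 4 h to 8 h.

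GAC1 again had the widest gap, at 3.07, 4.27, 6.16 and 7.18 in the auxotroph and 1.87, 2.83, 4.08 and 4.02 in the prototroph. GSY2 was 7.98 against 5.88 at 8 h, after 5.60 against 5.54 at 2 h. UGP1 stayed close, at 7.95 against 7.62 at 8 h. Each value is a single library, the strains also differ by the reporter, and their differences were not tested.

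During growth towards stationary phase most of the 9 stepped up between 8 and 10 h. In the haploid 8 of 9 members were higher at 10 h than at 2 h (6.46% of 6087 genes; median 3.66), and in the diploid-labelled strain 8 of 9 (13.5%; median 3.82), with GLG2 the exception in both. GPH1 was 4.05 and 4.26 at 2 h in the haploid, 5.55 and 5.59 at 8 h, 10.20 and 10.28 at 10 h and 8.64 and 8.83 at 24 h. Its difference between 10 and 2 h was 6.08 ± 0.43 (SE, limma adjusted p = 8.1e-07), 67.8-fold, and no other member rose as far in that strain.

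GLC3 was 3.35 and 4.31 at 2 h, 8.80 and 9.19 at 10 h and 8.86 and 8.98 at 24 h in the haploid, and GDB1 was 2.86 and 3.78, then 8.76 and 8.45, then 8.47 and 8.43. The 10 and 24 h libraries of both genes overlapped. UGP1 was 7.62 and 7.83 at 2 h, 9.93 and 9.88 at 10 h and 7.50 and 8.34 at 24 h, where its libraries lay on either side of those at 2 h. GSY1 was 5.54 and 5.57, then 8.49 and 8.60, then 6.30 and 6.07, and so ended above its libraries at 2 h. At 10 h UGP1 was 2.18 ± 0.31 above 2 h (SE, limma adjusted p = 0.00034).

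By 24 h 6 of 9 members remained higher than at 2 h in the haploid (12.4% of all genes) and 5 of 9 in the diploid-labelled strain (11.2%), a count that was 3 with only the compared groups in the fit. Between 10 and 24 h UGP1 fell by 1.99 and GPH1 fell by 1.5 in the haploid (2 of 9 lower; 7.87% of all genes), and UGP1 fell by 2.21, GPH1 fell by 2.55 and GDB1 fell by 1.90 in the diploid-labelled strain (3 of 9; 4.57%). The means of all 9 members were lower at 24 h than at 10 h in the diploid-labelled strain, with differences of -2.75 to -0.50. In the haploid 2 of 9 were higher, and differences ran from -2.36 to 1.10. At an unadjusted limma p under 0.05 6 members passed in the diploid-labelled strain and 3 in the haploid. GPH1 in the diploid-labelled strain was 11.35 and 11.45 at 10 h and 8.70 and 9.00 at 24 h. Neither strain's libraries at these times overlapped for GPH1. The 24 h against 2 h change differed between the strains for none of the 9 by the limma interaction test (1 did at an unadjusted p under 0.05; 0.279% of all genes passed), with member differences of -2.12 to -0.01.

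Low values limit the early points. GLG1 was listed at 0 in the single haploid library at 4 h and in both at 8 h, GPH1 at 0 in the haploid library at 4 h, and GLG2 at 0 in 3 libraries of this experiment, including 1 of the 2 haploid libraries at 2 h. The 2 calls of a lower member before 10 h, GPH1 at 4 h and GLG1 at 8 h in the haploid, both rest on these zeros. GLG2 at 10 h was 5.11 and 3.5 in the haploid after 4.76 and 0.00 at 2 h, and its difference of 1.93 ± 1.69 did not pass (SE, limma adjusted p = 0.58).

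**Figure D2:**
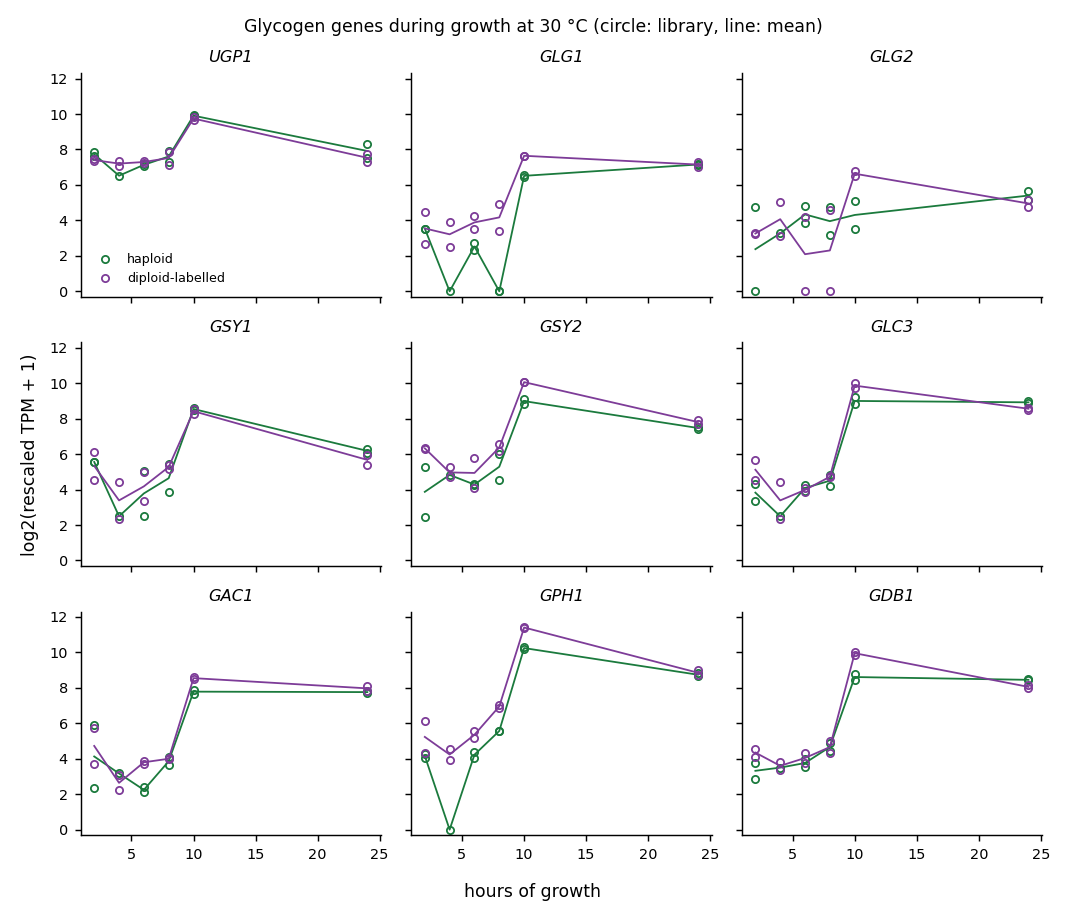
Level of each glycogen gene, in log2(rescaled TPM + 1), against hours of growth at 30 °C in the haploid and diploid-labelled strains, with a circle per library and lines through the means. All panels step up between 8 and 10 h except that GLG2 is scattered. UGP1, GPH1 and GSY1 have lower means at 24 h than at 10 h in both strains, while GLC3 in the haploid stays at 8.86 and 8.98. In the diploid-labelled strain the means of all 9 genes are lower at 24 h than at 10 h.

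Most of the 9 were higher within 1 h of rapamycin. In the haploid 7 of 9 members were higher than at 0 h after 1 h (23.8% of 6176 genes), 9 of 9 after 3 h (25.6%) and 8 of 9 after 5 h (22.5%), with member medians of 2.08, 2.37 and 2.85. With only the compared groups in the fit the count after 5 h was 4. The median over all genes also moved, by 0.63, 0.71 and 0.62. With each library centred on its median, 5 of 9 were higher after 5 h (GSY1, GSY2, GAC1, GPH1 and GDB1), and UGP1 was 0.15 above 0 h. No share of all genes is given beside these alternative counts, which describe the stability of calls only.

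GSY2 was 3.84 and 3.87 at 0 h, 7.10 and 7.13 at 1 h and 6.60 and 7.36 at 5 h in the haploid. It was near its highest level after 1 h and did not overlap with 0 h later, with a difference of 3.12 at 5 h (limma adjusted p = 3.2e-07). GPH1 climbed for longer, from 2.98 and 2.63 at 0 h to 5.67 and 5.87 at 1 h, 7.28 and 7.65 at 3 h and 6.63 and 7.16 at 5 h, where it was 4.09 ± 0.36 above 0 h (SE, adjusted p = 4.7e-07). GDB1 was 3.72 and 3.89, then 6.07 and 5.69, then 7.64 and 7.58, then 6.85 and 6.63 at the same times. GSY1 was listed at 0 in both haploid libraries at 0 h and was 3.41 and 3.30 at 1 h and 4.50 and 2.55 at 5 h, and no fold is given for it.

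In the diploid-labelled strain 8 of 9 members were higher after 1 h (18.8% of all genes), 8 of 9 after 3 h (24.5%) and 6 of 9 after 5 h (19.7%). The count after 5 h was 2 with only the compared groups in the fit, for which no share of all genes is given. GPH1 was 4.05 and 2.71 at 0 h, 6.43 and 6.70 at 1 h and 6.87 and 7.04 at 5 h, a difference of 3.57 at 5 h. GAC1, GSY1 and UGP1 did not pass at 5 h, with differences of 1.15, 1.5 and 0.48 (limma adjusted p = 0.078, 0.18 and 0.12). For UGP1 the difference turned to -0.22 with each library centred and to -0.08 in the deposited values. A legend in the study's supplement gives a lower dose for this strain than the labels do, so the strains are set side by side and were not compared. There was no untreated culture at 1 to 5 h, so time and drug cannot be told apart.

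**Figure D3:**
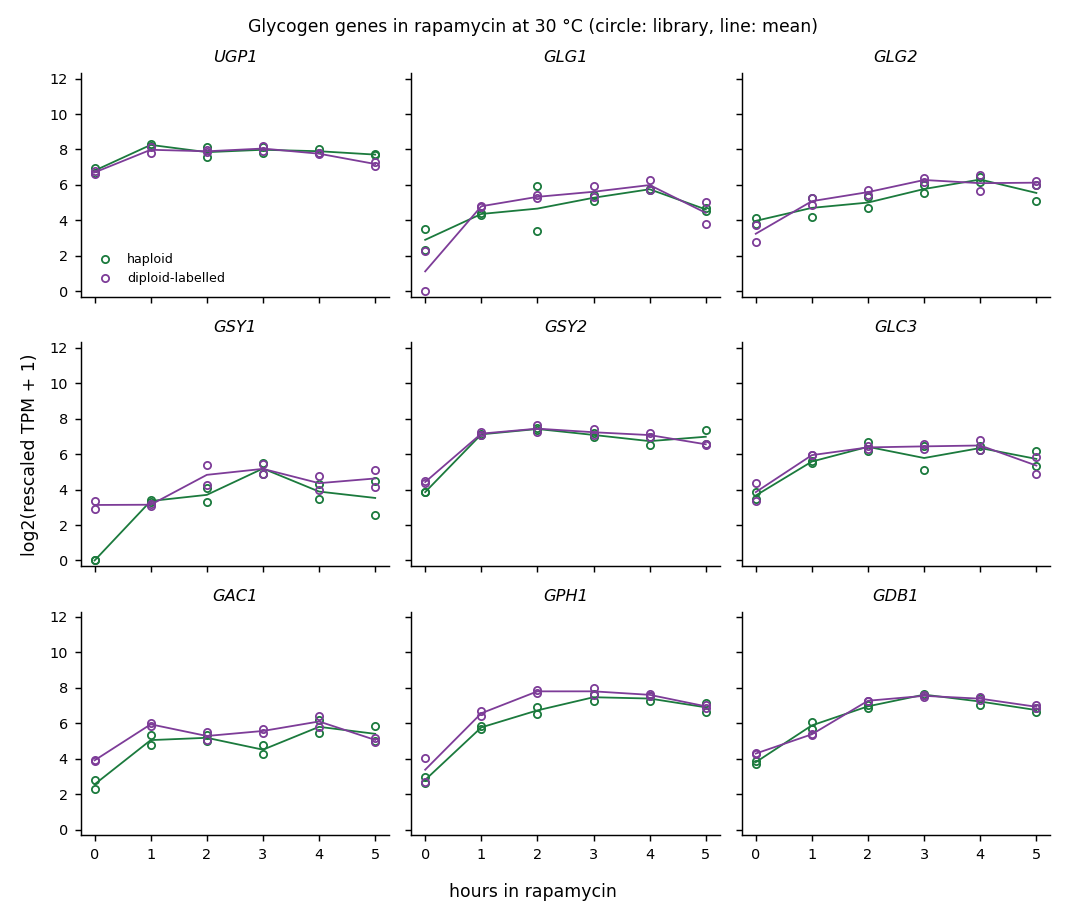
Level of each glycogen gene, in log2(rescaled TPM + 1), against hours in rapamycin at 30 °C in the haploid and diploid-labelled strains, with a circle per library and lines through the means. GSY2 steps from 3.84 and 3.87 to 7.10 and 7.13 within 1 h in the haploid and GPH1 and GDB1 climb to 3 h, while UGP1 moves least; both haploid GSY1 libraries at 0 h are listed at 0.

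With auxin, which triggers degradation of the tagged Bcy1, glycogen genes were lower in the AID-BCY1 strains than in their parents in all 4 backgrounds. After auxin (4 and 6 h averaged) 8 of 9 members were lower in the AID-BCY1 strain than in its parent for WT (15.0% of 6074 genes), 9 of 9 for cdc28-13 (25.0%), 9 of 9 for cdc20-1 (22.3%) and 9 of 9 for cdc15-2 (27.4%), by limma with the library series as a covariate. The median over the members was -1.74, -2.19, -2.35 and -2.27, and over all genes 0.05, -0.11, -0.08 and -0.08. No other processing and no left-out library changed these 4 counts.

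GPH1 differed most from the parent in each background, being lower by 4.28 ± 0.33, 3.80 ± 0.33, 3.96 ± 0.33 and 5.33 ± 0.33 in the order WT, cdc28-13, cdc20-1 and cdc15-2 (SE, limma adjusted p = 1.3e-10, 4.6e-10, 2.0e-10 and 2.5e-13). In cdc28-13 it was 9.12 and 8.46 in the parent at 4 h and 9.30 and 9.15 at 6 h, against 4.59 and 3.90 and then 6.45 and 5.91 in AID-BCY1. In the libraries labelled WT it was 8.08 and 7.58, then 6.67 and 7.23, against 3.39 and 2.34, then 3.41 and 3.32. No AID-BCY1 library reached its parent's range, and the cdc28-13 AID-BCY1 libraries were higher at 6 h than at 4 h.

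GLC3 came next in each background, lower by 3.22 ± 0.32, 3.51 ± 0.32, 3.36 ± 0.32 and 5.01 ± 0.32 (SE, limma adjusted p from 3.9e-13 to 1.1e-08). In cdc15-2 it was 7.82 and 8.78 at 4 h and 7.85 and 7.56 at 6 h in the parent, against 2.92 and 2.97, then 3.02 and 3.07 in AID-BCY1. These groups were more than 4 log2 units apart. GSY1 was lower by 3.11, 2.31, 2.40 and 3.63 and GSY2 by 1.74, 2.61, 2.21 and 2.27.

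GAC1 was lower by 2.60, 2.19, 2.71 and 3.05, GDB1 by 1.41, 2.03, 2.35 and 1.95, GLG1 by 1.29, 2.14, 1.74 and 1.88 and UGP1 by 1.11, 1.51, 1.3 and 1.81. UGP1 in cdc28-13 was 8.43 and 8.10, then 7.90 and 7.95 in the parent, and 6.51 and 6.60, then 6.60 and 6.64 in AID-BCY1, a gap wider than the spread within either strain. GLG2 differed least, by -0.15 in WT (adjusted p = 0.65) and by -0.89, -0.83 and -0.94 in cdc28-13, cdc20-1 and cdc15-2 (limma adjusted p = 0.0014, 0.0027 and 0.00064).

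Taking the 16 pairs of AID-BCY1 and parent libraries with the same background, series and time after auxin, 8 members were lower in 16 of 16 pairs and GLG2 in 15 of 16. Over these pairs GPH1 differed by -5.71 to -2.85 and GLG2 by -1.36 to 0.62. The pairs do not all share a mating type: the cdc20-1 pair and the cdc15-2 pair differ in a-cell and alpha-cell markers, whose part in the differences was not tested. In the WT and cdc28-13 pairs, which share these markers, 8 of 9 and 9 of 9 members were lower by limma.

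Before auxin the strains already differed in part. At 2 h no member was lower in WT AID-BCY1 (0.0494% of all genes), 1 of 9 in cdc28-13 AID-BCY1 (0.132%), 1 of 9 in cdc20-1 AID-BCY1 (1.42%) and none in cdc15-2 AID-BCY1 (0.461%) by limma. The parent in WT is 1 library, taken to vary like the other groups. At an unadjusted p under 0.05 the counts were 0 in WT, 8 in cdc28-13, 5 in cdc20-1 and 3 in cdc15-2. The 2 members that passed were UGP1 in cdc28-13, lower by 0.83 (adjusted p = 0.022), and GSY1 in cdc20-1, lower by 1.76 (limma adjusted p = 0.018). In cdc28-13 the differences at 2 h were negative for all 9 members, with a median of -1.15 against -2.19 after auxin, and GPH1 was 8.65 and 8.51 in the parent and 7.13 and 6.39 in AID-BCY1, groups that did not overlap. In WT GPH1 was 6.39 in the parent's single library and 6.32 and 6.96 in AID-BCY1, which do overlap. The difference after auxin was not tested against that at 2 h. The BCY1 transcript was 6.92 to 7.93 in libraries labelled WT and 6.73 to 7.42 in WT AID-BCY1, and 7.79 to 8.40 against 6.24 to 7.12 in the cdc28-13 pair, which checks nothing about the protein.

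**Figure D4:**
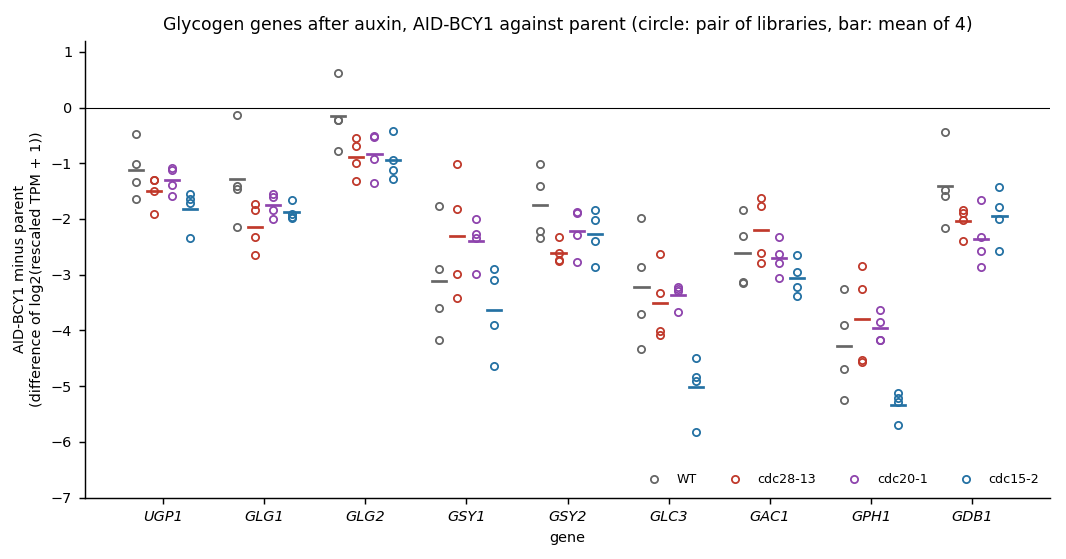
Difference in log2(rescaled TPM + 1) between AID-BCY1 and parent libraries at 4 and 6 h at 37 °C with auxin, by gene and background, with a circle per pair of libraries and a bar at the mean of 4. Circles lie below 0 for 8 genes in 16 of 16 pairs, GPH1 reaches from -5.71 to -2.85, and 1 GLG2 pair of WT lies above 0 at 0.62.

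Whether the difference between AID-BCY1 and parent after auxin varied between backgrounds was tested as an interaction with WT, without subtracting the difference at 2 h. None of the 9 members differed for cdc28-13 (5.37% of all genes in either direction) or for cdc20-1 (8.82%), and 2 of 9 did for cdc15-2 (9.86%) by limma. At an unadjusted p under 0.05 4 members passed for cdc28-13 and 2 for cdc20-1. The 2 for cdc15-2 were GLC3, with a further -1.79 ± 0.45, and UGP1, with a further -0.70 ± 0.16 (SE, limma adjusted p = 0.011 and 0.0064). The count for cdc15-2 was 1 in the deposited values, with each library centred and with only the compared groups in the fit, where UGP1 lost its call. At 2 h the difference between AID-BCY1 and parent was -1.13 in cdc15-2 and 0.80 in WT for GLC3, and -0.34 and 0.04 for UGP1, and the change from 2 h was not compared between backgrounds. For GPH1 the further difference in cdc15-2 was -1.06 ± 0.47 and did not pass (adjusted p = 0.17). Leaving out 1 library gave 0 to 2 members for cdc28-13, with 2 without the second WT library at 6 h, and 0 to 2 for cdc20-1, with 2 without the first cdc20-1 library at 4 h.

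Ratios between members within a library depend on its scaling only through the pseudocount, which weighs most at low levels, and were tested as a family of 6. GPH1 minus GSY2, a breakdown gene against a synthesis gene, was 1.36 in the parents and -0.78 in AID-BCY1 after auxin. The difference of -2.13 was negative in 16 of 16 pairs (2-sided exact sign-flip permutation test, p = 3.05e-05, the smallest that 65536 arrangements give, adjusted p = 9.16e-05). This ratio does not stand for breakdown against synthesis as a whole. Over the same pairs the other breakdown gene, GDB1, had a mean difference of -1.94. The means were -2.21 for GSY2, -2.86 for GSY1 and -3.78 for GLC3. At 2 h, before auxin, GPH1 minus GSY2 was 1.82 in the parents and 1.02 in AID-BCY1 of cdc28-13. It was 1.68 against 1.52 in cdc20-1, 1.34 against 0.44 in cdc15-2 and 0.38 (1 library) against 0.50 in WT. In WT and cdc28-13 at 9 h it was 1.22 ± 0.46 and 1.89 ± 0.04 (SD, n = 3), which 3 against 3 libraries cannot separate below an exact permutation p of 0.1 (p = 0.1, adjusted p = 0.15). The pairs cover only 4 backgrounds and share strains between times, so they are not independent cultures of 16 strains. Their sign-flip p-values therefore do not measure a spread between independent strains.

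In both paralog pairs the mean ratio after auxin was higher in AID-BCY1 than in the parents, and the 2 pairs were not compared with each other. GLG2 minus GLG1 was -0.47 in the parents and 0.59 in AID-BCY1, a difference of 1.06 that was positive in 16 of 16 pairs (exact sign-flip permutation test, p = 3.05e-05, adjusted p = 9.16e-05). The pairs are repeated libraries of 4 backgrounds, so these p-values do not measure a spread between independent strains. At 2 h, before auxin, this ratio was -0.95 in the parents and -0.32 in AID-BCY1 of cdc28-13. It was 0.08 against 0.80 in cdc20-1, -0.67 against -0.18 in cdc15-2 and 0.08 (1 library) against -0.23 in WT. GSY2 minus GSY1 was 0.27 in the parents and 0.93 in AID-BCY1, a difference of 0.65 that was positive in 13 of 16 pairs (exact sign-flip permutation p = 0.0169, adjusted p = 0.0338). Before auxin, at 2 h, it was already -0.46 in the parents and 0.44 in AID-BCY1 of cdc28-13. It was 0.02 against 1.12 in cdc20-1, -1.01 against -0.45 in cdc15-2 and 0.85 (1 library) against 0.46 in WT. For neither ratio was the difference after auxin tested against that at 2 h. In cdc28-13 against WT at 9 h neither pair's ratio passed, with 1.32 ± 0.11 against 1.76 ± 0.40 for GSY2 minus GSY1 (exact permutation p = 0.2, adjusted p = 0.24) and -0.49 ± 0.61 against 0.56 ± 0.98 for GLG2 minus GLG1 (exact permutation p = 0.3, adjusted p = 0.3; SD, n = 3). In the deposited values, which are low in that experiment, the difference in GSY2 minus GSY1 between cdc28-13 and WT at 9 h turned from -0.44 to 0.32.

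Elsewhere the paralogs are a description. GSY2 minus GSY1 was 0.45 ± 0.28 at 10 h and 1.29 ± 0.26 at 24 h in the haploid growth course (SD, n = 2) and 3.76 after 1 h of rapamycin. GLG2 minus GLG1 was -1.75 at 24 h of growth and 0.93 after 5 h of rapamycin in the haploid. The coding sequences of GSY1 (chrVI:174265-176391, minus strand) and GSY2 (chrXII:660716-662833, plus strand) match at 73.2% of 2113 aligned bases, and those of GLG1 (chrXI:552770-554620, plus strand) and GLG2 (chrX:154985-156127, minus strand) at 67.5% of 1124. Reads shared between paralogs were split by estimation in the authors' counting, which may affect the lower member of a pair.

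Of 19 other genes of glycogen metabolism and its control, 8 were higher and 3 lower in cdc28-13 at 9 h (17.1% and 19.1% of all genes). The largest were SGA1, a glucoamylase, at 4.38, PIG2, a phosphatase targeting subunit, at 4.20, and PGM2, the phosphoglucomutase that interconverts glucose 1-phosphate and glucose 6-phosphate, at 3.61 (limma adjusted p = 0.00034, 0.013 and 9.2e-10). After auxin 7 of the 19 were lower in WT AID-BCY1 (15.0% of all genes), 10 in cdc28-13 (25.0%), 11 in cdc20-1 (22.3%) and 14 in cdc15-2 (27.4%). PGM2 was among the 3 largest in each, lower by 2.42, 3.05, 2.95 and 3.70, and so was the glucokinase GLK1, lower by 2.91, 2.19, 2.34 and 3.12. At 24 h of growth 9 of the 19 were higher in the haploid (12.4% of all genes), led by GIP2, a phosphatase subunit, at 5.86. After 5 h of rapamycin 10 of the 19 were higher in the haploid (22.5%), led by the hexokinase HXK1 at 3.60.

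Over the 97 group means the members differed in how far they ranged, and their ranges overlapped. The lowest means of GPH1, GLG1 and GSY1 were 0.00, in groups whose libraries were listed at 0. UGP1 (chrXI:369891-371390) had the narrowest, from 6.47 in WT AID-BCY1 at 4 h to 9.91 in the haploid at 10 h of growth. GAC1 (chrXV:667860-670241) ran from 1.03 in DMSO at 8 h to 9.76 in cdc28-13 at 9 h. GPH1 (chrXVI:861306-864014) reached the highest mean of the 9, 11.50 in cdc28-13 at 8 h, and GSY2, GLC3 (chrV:133120-135234) and GDB1 (chrXVI:902044-906654) peaked at 10.06, 9.86 and 9.95 in the diploid-labelled strain at 10 h. The highest groups of all 9 members were in the cdc28-13 arrest at 8 or 9 h or at 10 h of growth.

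After subtracting each gene's mean within its experiment, each member was correlated with the mean of the other 8 over all libraries of the series, which share times, strains and experiments. Pearson's r was 0.95 for GLC3, 0.94 for GPH1 and GSY2, 0.93 for GDB1, 0.91 for GAC1, 0.87 for GLG1, 0.86 for GSY1, 0.81 for UGP1 and 0.64 for GLG2. GLG2 was loosest in the growth experiment (0.45) and in the Bcy1 experiment (0.57). Of 5644 genes compared, the 3 outside the list most like the mean of the 9 members were MSC1 at 0.94, PGM2 at 0.93 and OM45, which encodes a mitochondrial outer membrane protein, at 0.92. These are descriptions over libraries that are not independent.

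**Figure D5:**
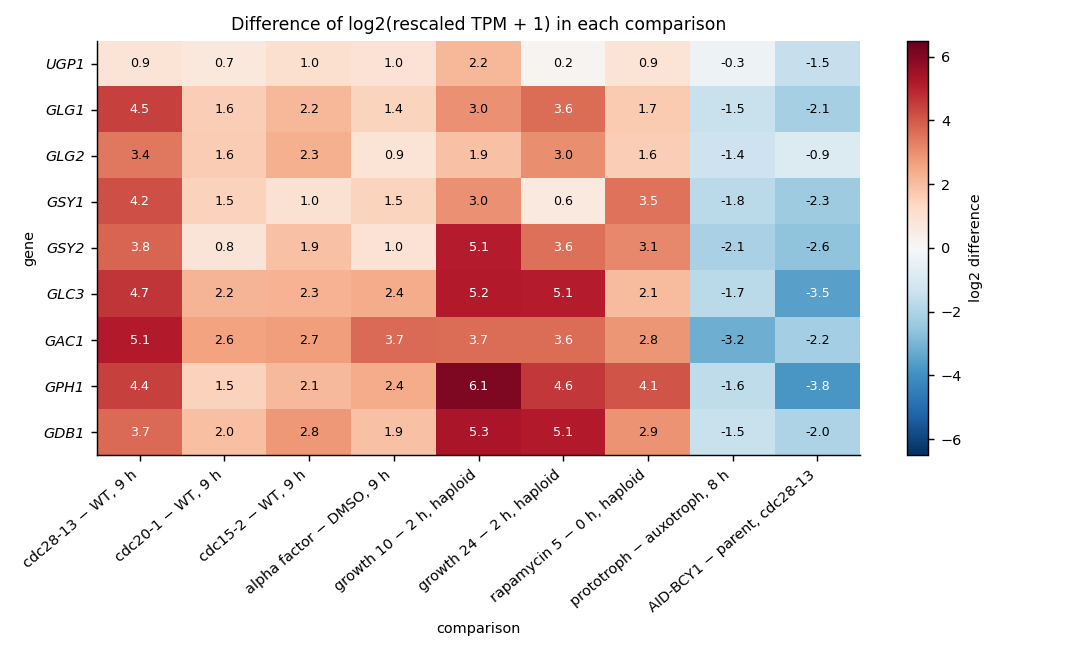
Difference in log2(rescaled TPM + 1) for each glycogen gene (vertical axis) in 9 comparisons (horizontal axis), with colour and printed value giving the difference. All values are positive in the arrest, growth and rapamycin columns and negative in the prototroph and AID-BCY1 columns, with UGP1 nearest to 0 in 5 of the 9; the UGP1 value of cdc28-13 turns negative in the deposited values, and GSY1 in rapamycin starts from 2 libraries listed at 0.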

How the data were processed

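The authors aligned reads with STAR 2.5.3a and estimated abundance with RSEM 1.3.0 against sacCer3, per the submitters' processing notes, and deposited log2(TPM + 1) for 7130 rows in 159 libraries. The labels name total RNA in the cdc28-13, alpha factor, growth, rapamycin and Bcy1 experiments and polyA RNA in the others, whereas the study's methods give total RNA only for the cdc28-13, growth and rapamycin experiments; ribosomal DNA frames made up 63.8 to 87.5% of open reading frame TPM in those 3 and 0.0734 to 1.32% in the alpha factor and Bcy1 experiments. Deposited values carry steps of 0.01 TPM and no depth. Here they were turned back to TPM and rescaled to 1000000 over 6678 nuclear open reading frames, leaving out 7 inside the ribosomal DNA, and log2 was taken with a pseudocount of 1, so fold changes of low genes are understated. After rescaling a step was worth 0.196 to 0.702 TPM in the cdc28-13, growth and rapamycin experiments. Genes with a mean of at least 1 within an experiment were fitted with limma 3.58.1 (R 4.3.3, variance trend), with all groups of an experiment in 1 fit, library series as a covariate in the Bcy1 experiment, and Benjamini-Hochberg adjustment over all genes kept, at a threshold of 0.05. The limma script was tested on simulated data. Experiments with 1 library per group were not tested. Ratios within a library were tested by exact permutation or sign flips (scipy 1.17.1). Named genes were the 9 members, up to 3 other glycogen pathway genes past the threshold with the largest change per comparison, of which the text gives a selection, label markers, and the 3 genes most like the member mean. The members and lists were chosen with earlier results of these data known. Alternatives were no rescaling, rescaling over all nuclear frames, libraries centred on their medians, 0.1 as pseudocount, a filter mean of 3 or none, only the compared groups, a replicate block, no series covariate, and leaving out each library. Sequences came from the RefSeq reference, build R64. Protein sequences were not used here. Of 16 promoter sites 6 are printed, and 1 nearest site is not reported here.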

Additional observations from a re-analysis of the deposited data

Results flagged for a closer look

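The difference between AID-BCY1 and parent after auxin was larger in cdc15-2 than in WT for 2 glycogen genes by the limma interaction test, which did not subtract the difference at 2 h. GLC3, the branching enzyme, was lower by a further -1.79 in cdc15-2, and UGP1, which makes UDP-glucose, by a further -0.70. Over 25 alternatives each, GLC3 stayed between -1.99 and -1.58 and kept its call, while UGP1 stayed between -0.86 and -0.49 and lost its call in 4: deposited values with either filter (-0.63), each library centred on its median (-0.49) and only the compared groups in the fit (-0.70). The cdc15-2 parent and its AID-BCY1 strain differ in mating type markers (831 to 1355 rescaled TPM over a-cell genes in the parent and 25.5 to 65.0 in AID-BCY1), while both WT strains carry alpha-cell markers. Their part in the difference was not tested. The backgrounds already differed in the same direction at 2 h, before auxin. Between AID-BCY1 and parent libraries of the same series, GLC3 then differed by -0.57 and -1.68 in cdc15-2. In the only such WT pair it differed by 0.32. UGP1 differed by -0.25 and -0.42 in cdc15-2 and by -0.05 in WT. Whether the gap between the backgrounds changed after auxin was not tested.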

How the results depend on the processing

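Of 2894 values of single members under an alternative, 2792 kept their direction and their side of the threshold, 79 lost a call, 18 gained one and 5 reversed. The 5 were UGP1 in cdc28-13 against WT: at 8 h -0.20 in the deposited values with either filter and -0.0909 with all nuclear frames in the total, and at 9 h -0.12 in the deposited values with either filter. The number of members higher in cdc28-13 at 2 h went from 0 to 1 with each library centred, and was 0 to 1 when leaving out a library (1 without the first WT or the first cdc28-13 library). In rapamycin at 5 h the haploid count of 8 became 5 in the deposited values and with centring, and 4 in the deposited values with the main filter, an alternative chosen after seeing the data, and with only the compared groups; the diploid-labelled 6 became 2 with only the compared groups, where the growth count at 24 h in that strain went from 5 to 3. Among the Bcy1 parents the cdc15-2 count of 5 became 3 with centring and was 3 to 6 when leaving out a library, and the cdc28-13 count was 3 to 6. The number of members whose Bcy1 effect differed from WT fell from 2 to 1 for cdc15-2 in the deposited values with either filter, with centring and with only the compared groups, and was 0 to 2 for cdc28-13 and for cdc20-1 when leaving out a library. The causes were not tested. No share of all genes is given beside the counts under alternatives, here or in the Results, so these counts describe the stability of calls only. Same-numbered libraries did not deviate together (17 correlations of -0.0349 to 0.0472), and the fit with a replicate block left all counts as they were, with 9 of 9 members higher in cdc28-13 at 9 h. Depth is unknown, and values listed at 0 limit GLG1, GLG2, GSY1 and GPH1 at early times of growth and rapamycin.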
